A study of Drosophila melanogaster with 10 samples.

Results

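The small RNAs left after transcriptional silencing of flamenco, a locus that gives rise to piRNAs, were compared with those of control cells in OSCs, a line cultured from the somatic part of the Drosophila melanogaster ovary. The comparison holds 4 of the 10 small RNA libraries of the series. The 2 Gal4-Panx-IDR libraries came from cells harvested on day 6 and on day 7 after transfection, and the 2 Gal4 libraries were numbered 1 and 2, with no harvest day given for them in the labels. All 4 came from OSCs that carry a UAS cassette in front of the promoter of flamenco on both copies of the X chromosome. Gal4 binds this cassette. Per the paper, the OSC line traces back to ovaries of bam mutants. Gal4-Panx-IDR joins the silencing domain (IDR) of Panoramix to Gal4, and the control cells received Gal4 alone. Expression was transient, and the Gal4-Panx-IDR cells were sorted for reduced GFP from a reporter that is silenced together with the locus, whereas one label gives the Gal4 cells as not enriched in this way and another gives sorting for all. Sorting and silencing therefore cannot be told apart in these libraries. The number of replicates was 2 per group, and the labels do not say that the cultures were independent beyond the 2 harvest days, so p-values measure the spread between these libraries, which may be technical.

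piRNAs are small RNAs bound by Piwi proteins, and those antisense to a transposon guide Piwi to its nascent transcripts, where Panoramix and its partners bring about heterochromatin. In the somatic cells of the ovary no ping-pong amplification takes place, and long single-stranded precursors from clusters such as flamenco are cut into piRNAs one after another. flamenco lies on the X chromosome next to DIP1 and is known as the master regulator of gypsy, ZAM and Idefix, retroelements of the Gypsy superfamily, because remnants of such elements lie in it mostly in antisense orientation. In the BDGP6.54 annotation lncRNA:flam (FBgn0267704) spans X:21631891-21790731 on the plus strand and DIP1 lies at X:21624796-21630148 on the minus strand. Those coordinates are not those of the study's own OSC assembly, in which the locus is longer. Coverage of the locus itself was not analysed here, and the values below are those of transposon consensus sequences, wherever in the genome the small RNAs were made.

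The authors aligned reads to 122 consensus sequences and gave the coverage at each of 610009 positions on both strands per 1000000 miRNA reads. Of the elements, 62 are LTR retrotransposons (50 of the Gypsy, 5 of the Copia and 7 of the BEL/Pao superfamily), 32 are LINEs, 25 are DNA transposons and 3 were left unclassified. The mean coverage per nt of an element is called its level here, and names of elements that are numbers are set in quotes. The depth that follows from the smallest step between values was 151205 and 117444 miRNA reads in the Gal4-Panx-IDR libraries of day 6 and day 7, against 87066 and 110492 in Gal4 libraries 1 and 2. The 4 libraries are shallow enough to limit weakly covered elements, which were left out of the tests below a mean level of 10. Reads that fit more than 1 consensus had been left out by the authors, so that elements of shared sequence, such as roo and rooA or HMS-Beagle and HMS-Beagle2, can appear lower than they are. In a mixed cell population, fewer silenced cells and weaker silencing per cell cannot be told apart.

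Averaged over all positions, antisense coverage was 518.0 and 592.2 in the Gal4-Panx-IDR libraries of day 6 and day 7, against 858.9 and 1011.7 in the Gal4 libraries. Both Gal4-Panx-IDR libraries lay below both Gal4 libraries, at 0.593 of the Gal4 mean. Sense coverage was 95.4 and 93.2 in the Gal4-Panx-IDR libraries, against 96.8 and 106.5 in the Gal4 libraries. The antisense strand held 84.4% and 86.4% of the coverage in Gal4-Panx-IDR cells, against 89.9% and 90.5% in Gal4 cells. The classes did not move alike. LTR retrotransposons as a whole had an antisense sum of 486.8 and 560.2 in Gal4-Panx-IDR cells, against 805.5 and 945.3 in Gal4 cells, expressed per nt of all consensus sequences together, which gave a ratio of 0.598. LINEs had 28.9 and 29.8 in Gal4-Panx-IDR cells, against 51.6 and 64.3 in Gal4 cells, a ratio of 0.507. DNA transposons had 2.21 and 2.11 in Gal4-Panx-IDR cells, against 1.72 and 1.93 in Gal4 cells, a ratio of 1.18. A single DNA transposon, transib2, carried most of this difference, with a gain of 0.253 on the same scale. The DNA sum was not computed without it. The groups did not overlap in any of the 3 classes. With 2 libraries against 2, the two-sided exact permutation test gave p = 0.33 for each class, the smallest value it can reach.

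Within the LTR class the superfamilies differed. Gypsy elements summed to 329.0 and 368.9 in Gal4-Panx-IDR cells, against 783.9 and 920.8 in Gal4 cells, a ratio of 0.409. Copia elements, few and thinly covered, summed to 0.850 and 0.862 in Gal4-Panx-IDR cells, against 1.19 and 1.57 in Gal4 cells, a ratio of 0.620. Without Dm88 the Copia ratio was 0.965 and the groups overlapped. BEL/Pao elements summed to 157.0 and 190.4 in Gal4-Panx-IDR cells, against 20.4 and 22.9 in Gal4 cells, a ratio of 8.01. A single element, roo, carried this difference: without it the BEL/Pao ratio was 0.824 and the ratio of the whole LTR class was 0.411. Coverage other than roo made up 70.0% and 68.1% of the antisense strand in Gal4-Panx-IDR cells, against 97.9% and 98.0% in Gal4 cells. Because the values are relative to miRNA reads, these sums depend on the miRNA content of each library, and under scaling to the total transposon coverage the difference of the LTR class was -0.068 on the log2 scale.

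For each element the level was compared with limma on log2(level + 1), so that the change of weakly covered elements is understated. A total of 73 elements could be tested for the antisense strand, and 39 were lower in Gal4-Panx-IDR cells at a Benjamini-Hochberg adjusted p below 0.05 (53.4% of those tested), while 6 were higher (8.22%). The median ratio over all 73 was 0.651. In the LTR class 29 of 41 tested elements fell and 2 rose, with a median ratio of 0.388. In the Gypsy superfamily the numbers were 28 and 1 of 35, with a median log2 change of -1.40. Among LINEs 9 of 18 fell and 1 rose, with a median ratio of 0.622. Among DNA transposons 1 of 14 fell and 3 rose, with a median ratio of 0.997. limma estimated an infinite prior for the spread, so that an element was judged by the spread that all tested elements share rather than by its own pair of libraries. The 2 groups did not overlap in 87.7% of the tested elements, 54 of them lower and 10 higher. A minimum on the mean of all 4 libraries lets an element pass through 1 group: G2, Tirant, accord and invader1, 4 of the 39, reached it through Gal4 alone, and G5, 1 of the 6, through Gal4-Panx-IDR alone.

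The number of higher elements depended on what the libraries were scaled to. Scaled to total transposon coverage, 33 elements were lower and 28 higher, and with median-ratio scaling, which assumes that most elements do not change, 34 were lower and 18 higher. The median of all elements was then 0.07 and -0.19 on the log2 scale, against -0.57 per 1000000 miRNA reads. Under both scalings the elements called lower were all among the 39, and the 6 called higher remained so. By class, the scaling to total coverage gave 24 lower and 10 higher LTR elements, 9 lower and 7 higher LINEs, and 0 lower and 11 higher DNA transposons. With median-ratio scaling these numbers were 25 and 7, 9 and 4, and 0 and 7. The 9 LINEs that fell were thus called under each scaling, as were 23 or more of the 28 Gypsy elements, whereas the split of DNA transposons changed with the scaling. Most of these 9 LINEs were not called when the median over positions replaced the mean.

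**Figure D1:**
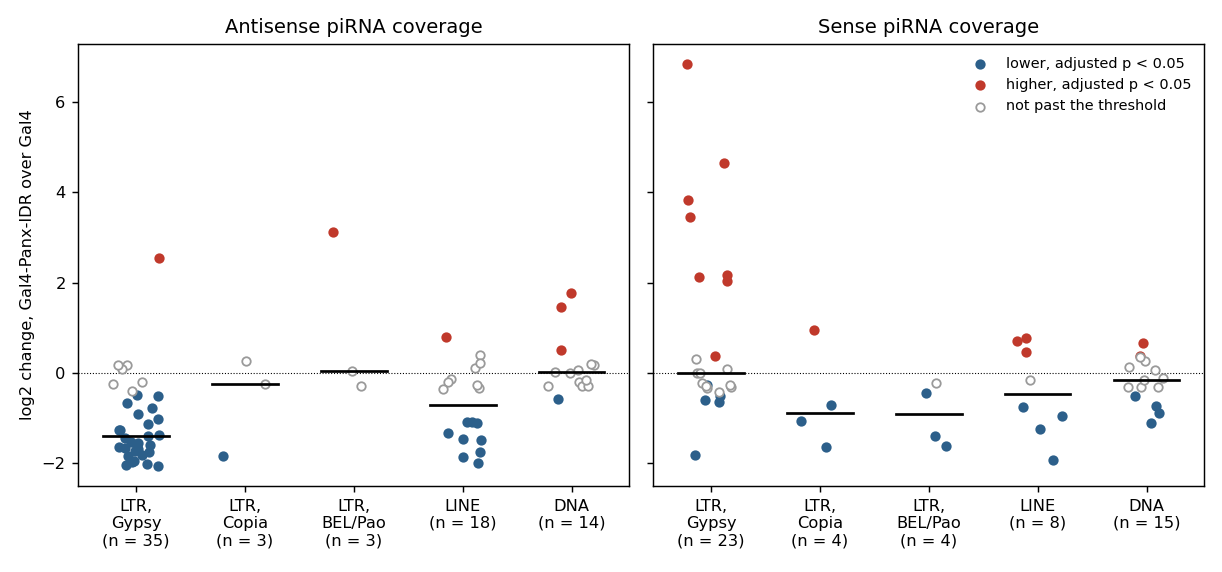
log2 change (Gal4-Panx-IDR minus Gal4) of the mean coverage per nt for each tested transposon, grouped by superfamily or class, for the antisense and the sense strand. Each point is 1 element, filled where the limma adjusted p was below 0.05, and bars are group medians. On the antisense strand most Gypsy elements lie below 0 with a median of -1.40, DNA transposons have a median of 0.01, and roo stands alone at 3.13.

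The elements classically under flamenco control all had lower antisense coverage after its silencing. gypsy, an endogenous retrovirus with an env gene, had levels of 1877 and 2344 in Gal4-Panx-IDR cells of day 6 and day 7, against 5461 and 5590 in Gal4 cells. The groups were far apart, with a ratio of 0.382 and a log2 change of -1.40 ± 0.22 (SE; limma adjusted p = 4.56e-09). ZAM, a related retroelement that is mobilised when flamenco is defective, had 274.0 and 330.4 in Gal4-Panx-IDR cells, against 1002 and 1353 in Gal4 cells. Its ratio was 0.257, a log2 change of -1.95 ± 0.23 (SE; limma adjusted p = 2.19e-13). Idefix had 2943 and 2956 in Gal4-Panx-IDR cells, against 4553 and 5659 in Gal4 cells. The groups did not overlap here either, but the log2 change of -0.78 ± 0.21 (SE; limma adjusted p = 6.49e-04) was smaller than that of the other 2, and it was -0.11 and not called when libraries were scaled to total transposon coverage and -0.39 (limma adjusted p = 0.0969) with median-ratio scaling.

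The best covered elements of control cells belonged to the Gypsy superfamily. '412', an LTR retrotransposon and the element with the most antisense coverage in Gal4 cells, had 3591 and 4296 in Gal4-Panx-IDR cells, against 9101 and 9861 in Gal4 cells, a ratio of 0.416. gtwin, a relative of gypsy, had 2153 and 2752 in Gal4-Panx-IDR cells, against 6414 and 6881 in Gal4 cells, a ratio of 0.369. mdg1 had 1652 and 2087 in Gal4-Panx-IDR cells, against 5483 and 5983 in Gal4 cells, a ratio of 0.326. In all 3 both Gal4-Panx-IDR libraries were below both Gal4 libraries, with log2 changes of -1.27, -1.45 and -1.62 (limma adjusted p at most 8.33e-09). Summed over all elements with a lower mean in Gal4-Panx-IDR cells, whether called or not, antisense coverage fell by 536.2 per nt of all consensus sequences. The elements '412', gtwin and mdg1 accounted for 12.8%, 9.51% and 8.84% of this loss, 5 elements for 45.5% and 10 elements for 67.6%.

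The elements with the 5 largest decreases were less abundant. gypsy3_new had 32.4 and 38.3 in Gal4-Panx-IDR cells, against 125.2 and 180.1 in Gal4 cells, which is a ratio of 0.232 and a log2 change of -2.06 ± 0.18 (SE; limma adjusted p = 3.02e-21). gypsy10_new, of the Gypsy superfamily like gypsy4, had 547.2 and 611.9 in Gal4-Panx-IDR cells, against 1997 and 2889 in Gal4 cells, a ratio of 0.237. gypsy4 had 423.1 and 456.0 in Gal4-Panx-IDR cells, against 1471 and 2182 in Gal4 cells, a ratio of 0.241. In these 3 the decrease was about 4-fold. G6, a LINE of the jockey clade, had 203.1 and 229.8 in Gal4-Panx-IDR cells, against 766.5 and 975.6 in Gal4 cells, a ratio of 0.248. HMS-Beagle2 had 267.9 and 304.2 in Gal4-Panx-IDR cells, against 936.4 and 1344 in Gal4 cells, a ratio of 0.251. The Gal4-Panx-IDR libraries lay close to each other in these elements, while the Gal4 libraries were wider apart, library 2 always being the higher. When the median over positions was used in place of the mean, the difference of gypsy3_new was 0. Over the 39 elements that fell, the ratio ranged between 0.232 and 0.712, the highest being that of '17.6', with 2753 and 2768 in Gal4-Panx-IDR cells, against 3555 and 4198 in Gal4 cells (limma adjusted p = 0.0453). '17.6' was no longer called under either other scaling, and the same held for GATE, HMS-Beagle and hobo, which, like '17.6', were chosen after their values were seen.

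Among the LINEs, non-LTR retrotransposons that copy themselves at their site of insertion, F-element, Helena and Doc had the most antisense coverage in Gal4 cells. F-element had 563.2 and 628.6 in Gal4-Panx-IDR cells, against 1460 and 1852 in Gal4 cells, a ratio of 0.360 and a log2 change of -1.46 ± 0.24 (SE; limma adjusted p = 1.51e-08). Doc had 730.6 and 728.7 in Gal4-Panx-IDR cells, against 1359 and 1769 in Gal4 cells, a ratio of 0.466. Helena had 663.2 and 860.8 in Gal4-Panx-IDR cells, against 1569 and 1653 in Gal4 cells, a ratio of 0.473. Neither Doc nor Helena was called when the median over positions replaced the mean. The groups did not overlap in any of the 3, but the call for Helena rested on the day 6 library, without which the limma adjusted p was 0.0645. The other LINEs that fell were G6, G2, baggins, jockey2, Juan and Ivk. The LINE called higher, G5, had 13.3 and 12.8 in Gal4-Panx-IDR cells, against 6.46 and 7.85 in Gal4 cells (limma adjusted p = 0.0111). G5 reached the minimum level of 10 through Gal4-Panx-IDR cells alone, so its call depends on the filter. With as few as 77 reads behind it in Gal4 library 1, it fell below the minimum level when either Gal4-Panx-IDR library was left out.

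Copia and DNA elements were less uniform. Dm88, of the Copia superfamily, had 23.6 and 25.6 in Gal4-Panx-IDR cells, against 75.9 and 106.8 in Gal4 cells, a log2 change of -1.83 ± 0.18 (SE; limma adjusted p = 1.18e-17), which was 0 with the median over positions. copia itself had 40.5 and 44.1 in Gal4-Panx-IDR cells, against 30.3 and 40.9 in Gal4 cells, with overlapping groups (limma adjusted p = 0.228, and 0.0410 without Gal4 library 2). Copia1 had 40.3 and 35.3 in Gal4-Panx-IDR cells, against 43.2 and 47.3 in Gal4 cells (limma adjusted p = 0.228). Neither copia nor Copia1 passed the test. Of the DNA transposons, which move without an RNA copy, Repbase_DNAREP1, a short repeat without a transposase of its own, had 247.9 and 228.6 in Gal4-Panx-IDR cells, against 161.1 and 174.3 in Gal4 cells. Its log2 change of 0.50 ± 0.20 (SE; limma adjusted p = 0.0201) was lost when either Gal4-Panx-IDR library was left out (limma adjusted p = 0.254 without day 6 and 0.134 without day 7). Repbase_DNAREP1 is written DNAREP1 hereafter. '1360', of the P element superfamily, had 82.3 and 72.5 in Gal4-Panx-IDR cells, against 76.0 and 77.7 in Gal4 cells (limma adjusted p = 0.967), and Tc1, of the Tc1/mariner superfamily, had 45.5 and 41.2 in Gal4-Panx-IDR cells, against 47.4 and 60.3 in Gal4 cells (limma adjusted p = 0.148). Both missed the threshold, and the Gal4 values of '1360' lay between those of Gal4-Panx-IDR cells.

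Antisense coverage of roo, a BEL/Pao retrotransposon with many copies in the fly genome, was 10410 and 12667 in Gal4-Panx-IDR cells, against 1238 and 1390 in Gal4 cells. Both Gal4-Panx-IDR libraries were several-fold above both Gal4 libraries, by a log2 change of 3.13 ± 0.21 (SE; limma adjusted p = 1.40e-28), and at least 27989 reads stood behind the value in each library. roo made up 97.7% of all the antisense coverage gained, which amounted to 155.9 per nt of all consensus sequences, or 29.1% of what was lost. Its relative rooA had 122.6 and 110.9 in Gal4-Panx-IDR cells, against 138.9 and 149.1 in Gal4 cells, and did not pass the test (limma adjusted p = 0.158). The third BEL/Pao element tested, 3S18, had 13.2 and 11.5 in Gal4-Panx-IDR cells, against 10.2 and 14.0 in Gal4 cells (limma adjusted p = 0.894). Of the 3 BEL/Pao elements tested, roo was thus the single one that rose. invader2, an LTR element of the Gypsy superfamily, had 238.4 and 291.5 in Gal4-Panx-IDR cells, against 40.5 and 49.1 in Gal4 cells, a ratio of 5.91. The DNA transposons transib2 and Tc1-2 rose as well, with ratios of 3.53 and 2.86. transib2 had 69.1 and 82.4 in Gal4-Panx-IDR cells, against 19.0 and 23.9 in Gal4 cells. Tc1-2 had 46.5 and 49.3 in Gal4-Panx-IDR cells, against 15.6 and 17.9 in Gal4 cells. The groups were apart in roo, invader2, transib2 and Tc1-2, and each of these 4 was called under both other scalings and with any library left out. With the median over positions, transib2 (0.81, limma adjusted p = 0.161) and Tc1-2 (1.45, limma adjusted p = 0.0503) were not called.

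**Figure D2:**
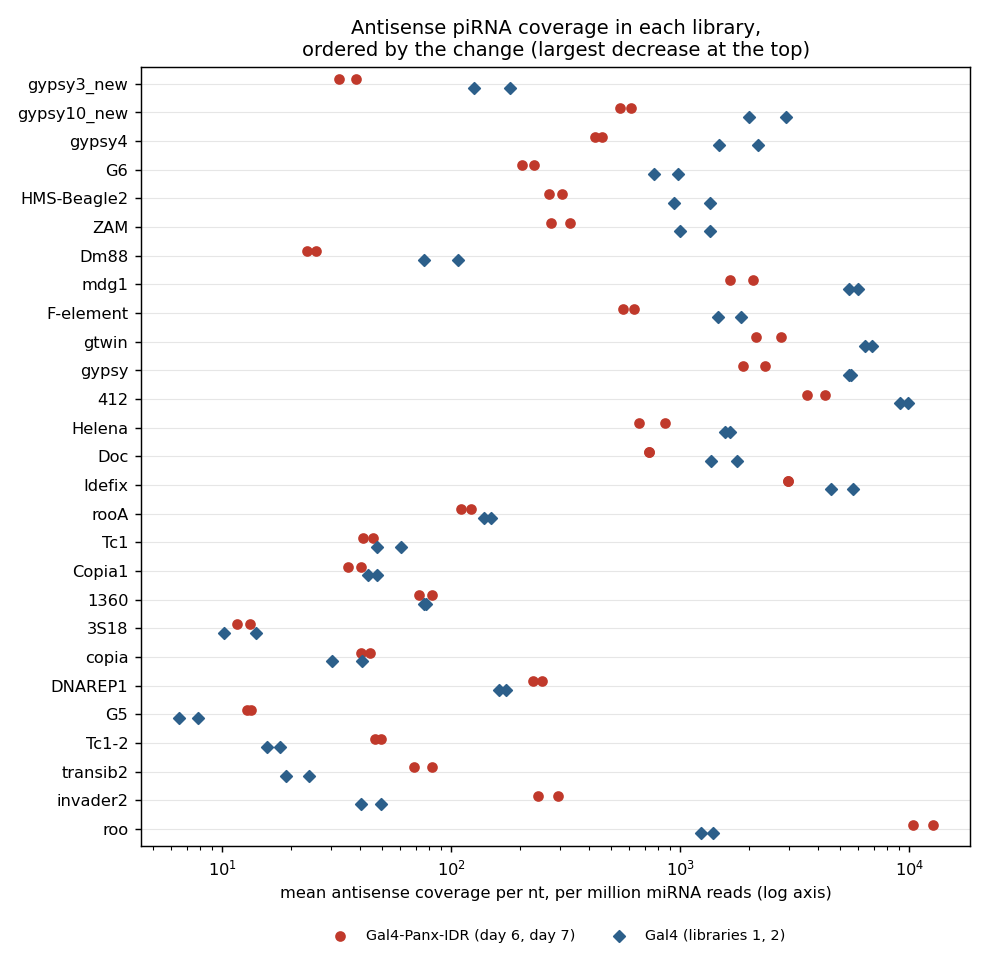
Mean antisense coverage per nt and per 1000000 miRNA reads (log axis) of each named element in the 2 Gal4-Panx-IDR libraries (circles) and the 2 Gal4 libraries (diamonds), ordered by the change. The circles lie left of the diamonds for each element down to rooA and right of them for the 6 at the bottom, of which roo reaches 12667 on day 7 against at most 1390 in Gal4 cells.

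On the sense strand the changes went both ways. Of 54 elements tested, 19 were lower in Gal4-Panx-IDR cells (35.2%) and 14 higher (25.9%), and groups were apart in 88.9%. Of the 14, 4 reached the minimum level through Gal4-Panx-IDR cells alone. The sense sum was less affected than the antisense sum. Gains of 20.6 per nt of all consensus sequences stood against losses of 28.0. These losses were also a smaller share of the Gal4 sum than those of the antisense strand. A single element, mdg1, made up 60.3% of the gain, and copia and springer made up 30.0% and 23.5% of the loss. The split again depended on scaling, with 7 lower and 28 higher elements under scaling to total transposon coverage and 12 lower and 21 higher under median-ratio scaling. The 14 elements called higher were so under both.

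Among the elements tested, the 5 largest sense increases were in Gypsy elements whose antisense coverage fell. Of these, mdg1, Tabor and '412' reached the minimum level of 10 through Gal4-Panx-IDR cells alone, as did Dm88. They thus entered the test through the group in which they were higher. gypsy5, named here after its values were seen, was below the minimum, with 6.68 and 7.63 in Gal4-Panx-IDR cells, against 0.180 and 0.0892 in Gal4 cells, and was not tested. mdg1 had sense levels of 926.1 and 1120 in Gal4-Panx-IDR cells, against 10.3 and 5.99 in Gal4 cells. Both Gal4-Panx-IDR libraries were about 2 orders of magnitude above both Gal4 libraries, a ratio of 126 and a log2 change of 6.84 ± 0.22 (SE; limma adjusted p = 2.90e-54). Tabor had 117.9 and 109.4 in Gal4-Panx-IDR cells, against 3.28 and 3.86 in Gal4 cells, a ratio of 31.8. '412' had 38.0 and 42.9 in Gal4-Panx-IDR cells, against 1.98 and 1.80 in Gal4 cells, a ratio of 21.4, with at least 37 reads in each library. gypsy had 131.9 and 151.4 in Gal4-Panx-IDR cells, against 11.7 and 12.4 in Gal4 cells, a ratio of 11.8. The groups were widely separated in each. blood, another Gypsy element, had 124.4 and 128.0 in Gal4-Panx-IDR cells, against 24.7 and 30.3 in Gal4 cells, a ratio of 4.58. Other elements with lower antisense and higher sense coverage were '297', Quasimodo, Stalker2, Dm88, Juan and Ivk, which gives 11 elements of this kind. Their sense change was smaller, with a ratio of 4.41 in Stalker2, 4.30 in Quasimodo, 2.05 in Dm88, 1.64 in Juan, 1.41 in Ivk and 1.32 in '297'. The sense calls of '297', Juan and Ivk were lost when single libraries were left out: '297' without day 6 or either Gal4 library, Juan without day 6 or Gal4 library 2, and Ivk without Gal4 library 1. '297' was not called with all 10 libraries in 1 fit either. The median over positions left gypsy (4.06, limma adjusted p = 0.193), '297', Ivk, Dm88 and Stalker2 without a call. Without low-coverage filtering, '297' and Ivk were not called. A total of 7 elements were lower on both strands, 2 were lower on the antisense strand with no call on the sense strand, and 19 were lower with too little sense coverage to test. No element was higher on both strands, but this rests on few elements. Of those higher on the antisense strand, 3 were lower on the sense strand, 2 were not called and G5 was not tested.

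The sense decreases included elements whose small RNAs were mostly sense. Copia1 had sense levels of 154.2 and 159.8 in Gal4-Panx-IDR cells, against 428.8 and 556.8 in Gal4 cells, a ratio of 0.319 and a log2 change of -1.63 ± 0.20 (SE; limma adjusted p = 2.65e-12). BS, a LINE of the jockey clade, had 24.4 and 26.6 in Gal4-Panx-IDR cells, against 79.8 and 126.2 in Gal4 cells, a ratio of 0.247. gypsy3_new had 50.9 and 56.7 in Gal4-Panx-IDR cells, against 166.1 and 224.2 in Gal4 cells, a ratio of 0.276. The groups did not overlap in any of these, and in gypsy3_new both strands fell. diver2, a BEL/Pao element, had 11.7 and 11.3 in Gal4-Panx-IDR cells, against 29.9 and 46.8 in Gal4 cells, a ratio of 0.299. With the median over positions the sense change was 0 in BS and gypsy3_new, and diver2 was not called (limma adjusted p = 0.471). roo had sense levels of 56.1 and 49.5 in Gal4-Panx-IDR cells, against 126.8 and 155.8 in Gal4 cells, a ratio of 0.374 (limma adjusted p = 1.24e-08), opposite in direction to its antisense strand. DNAREP1 and invader2 were called higher on the antisense and lower on the sense strand too, but these sense calls were less firm. That of DNAREP1 was lost under scaling to total transposon coverage and with the median over positions. The sense change of invader2 was 0.16 under scaling to total coverage, opposite in direction, and was not called with median-ratio scaling (-0.12), with the median over positions, or without day 6, day 7 or Gal4 library 2. The 2 elements with the most sense loss, copia and springer, are known for abundant sense piRNAs in OSCs. copia had 1656 and 1512 in Gal4-Panx-IDR cells, against 2492 and 2668 in Gal4 cells, a ratio of 0.614. springer, chosen after its values were seen, had 2524 and 2488 in Gal4-Panx-IDR cells, against 2955 and 3123 in Gal4 cells, a log2 change of -0.28. Under scaling to total transposon coverage springer was higher instead (0.40, limma adjusted p = 0.0320) and copia was not called (-0.03).

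The share of the antisense strand does not depend on how libraries are scaled, because both strands of a library share the same factor. The log2 ratio of antisense to sense levels, again with 1 added to each, was tested for 84 elements and was lower in Gal4-Panx-IDR cells for 37 (44%) and higher for 15 (17.9%). The groups were apart in 82.1%. Where sense coverage was near 0, the added 1 makes this ratio follow the antisense level, which does depend on scaling. Tirant, for example, was called lower (-1.63) although its share was 100% and 99.3% in Gal4-Panx-IDR cells, against 100% in both Gal4 libraries. G6 was called lower with overlapping shares, 99.7% and 99.9% in Gal4-Panx-IDR cells, against 99.8% and 99.9% in Gal4 cells. The counts by class include such elements. In the Gypsy superfamily the ratio fell in 26 of 40 elements and rose in 1, among LINEs it fell in 9 of 19 and rose in 4, and among DNA transposons it fell in 1 of 16 and rose in 6. The medians of the log2 change were -1.04 in the LTR class, -0.37 in LINEs and 0.30 in DNA transposons, against -0.35 over all 84.

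mdg1 moved farthest. Its antisense share was 64.1% and 65.1% in Gal4-Panx-IDR cells, against 99.8% and 99.9% in Gal4 cells, and its log2 ratio changed by -8.47 ± 0.20 (SE; limma adjusted p = 2.00e-90). Tabor had 84.1% and 86.6% in Gal4-Panx-IDR cells, against 99.8% and 99.9% in Gal4 cells, a log2 change of -6.49. gypsy had 93.4% and 93.9% in Gal4-Panx-IDR cells, against 99.8% in both Gal4 libraries, a change of -4.85. With the median over positions that change was -5.40 and not called (limma adjusted p = 0.0992). In these 3 the groups were separated by far more than the libraries of a group differed. In '412' and gypsy5, the ratio fell by 5.11 and 4.41 on the log2 scale, but the share stayed above 98% in all libraries since so little sense coverage was present. Juan, a LINE, went below an even split, with 41.3% and 43.8% antisense in Gal4-Panx-IDR cells, against 68.3% and 76.4% in Gal4 cells. Dm88 had 52.7% and 61.9% in Gal4-Panx-IDR cells, against 89.3% and 92.3% in Gal4 cells. The spread between libraries was wider in Juan and Dm88, but no values overlapped.

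A shift toward antisense was seen in roo and 14 other elements. roo had 99.5% and 99.6% antisense in Gal4-Panx-IDR cells, against 90.7% and 89.9% in Gal4 cells, a log2 change of 4.53 ± 0.20 (SE; limma adjusted p = 1.81e-52). invader2 was mostly antisense, at 79.5% and 85.4%, in Gal4-Panx-IDR cells, against 35.7% and 36.5% in Gal4 cells, and so it changed its main strand. BS had 27.0% and 28.2% in Gal4-Panx-IDR cells, against 7.83% and 5.78% in Gal4 cells, and diver2 had 46.6% and 41.0% in Gal4-Panx-IDR cells, against 20.2% and 17.9% in Gal4 cells. transib2 had 74.4% and 79.1% in Gal4-Panx-IDR cells, against 53.0% and 56.7% in Gal4 cells. Of these, roo combined a rise of the antisense with a fall of the sense strand, the antisense strand of invader2 rose while its sense call depended on the scaling, BS and diver2 were lower on the sense strand with too little antisense coverage to test, and transib2 rose on the antisense strand. Counted over the 84 elements, 33 were above 90% antisense in Gal4-Panx-IDR cells, against 41 in Gal4 cells, and the median share was 79.0% in Gal4-Panx-IDR cells and 84.5% in Gal4 cells.

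**Figure D3:**
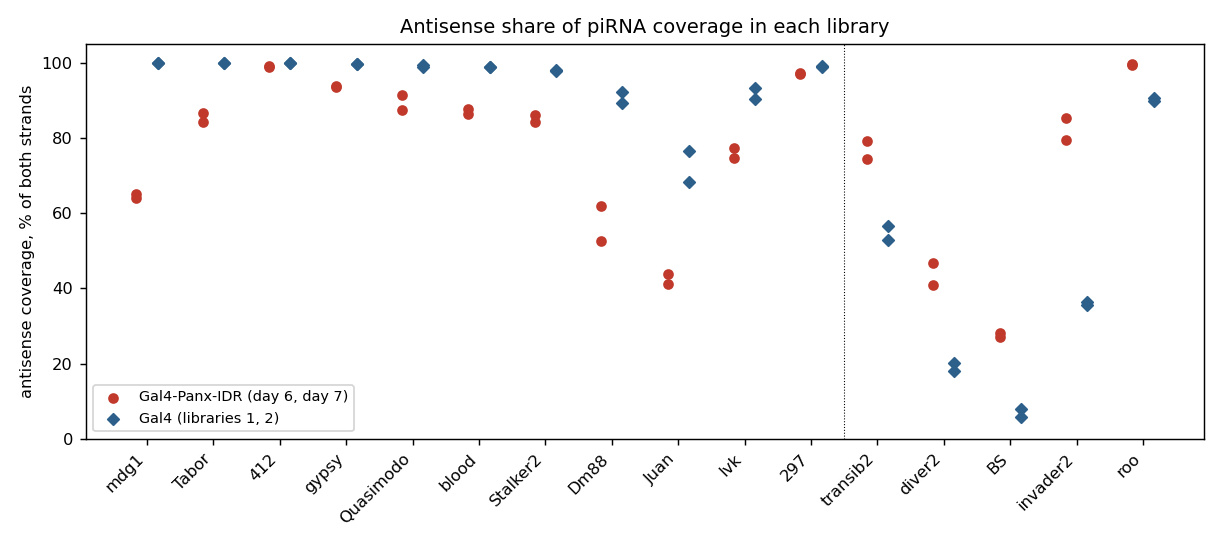
Share of the antisense strand in the coverage of an element, in percent, in each library, with Gal4-Panx-IDR left of Gal4 for each element. Left of the dotted line stand the 11 elements with lower antisense and higher sense coverage, where mdg1 has 64.1% and 65.1% in Gal4-Panx-IDR cells against 99.8% and 99.9% in Gal4 cells, and right of it transib2, diver2, BS, invader2 and roo, whose share was higher.

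To see whether the loss was even along an element, each consensus was divided into 10 equal parts, numbered from the 5′ end of the sense strand, and the antisense level of a part was set relative to that of the whole element in the same library. This relative value is also free of library scaling, apart from the 1 added to each level before log2 was taken. For 38 elements with a mean level of at least 100, 366 parts with a level of at least 10 could be tested with limma, and 61 were relatively lower in Gal4-Panx-IDR cells (16.7%) and 64 relatively higher (17.5%). At least 1 part was called in 29 elements and none in 9. The parts called were 87 of 267 in the LTR class and 35 of 89 in LINEs. Within an element the highest ratio of any part was at the median 1.48 times the lowest (range 1.09 to 15.9), and it was 2 or more in 9 elements. No position along the elements was favoured in general, with medians of the relative change between -0.03 and 0.07 over the 10 parts.

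In '17.6' the ratio lay between 0.685 and 0.744 and no part passed the test. In '412' it lay in a similarly narrow range, between 0.389 and 0.443, but 1 part was called relatively higher and 2 relatively lower, by at most 0.096 on the log2 scale. Tabor, gypsy2_new, gypsy10_new, HMS-Beagle2 and Juan likewise had no part that passed the test. Other elements kept a stretch of antisense coverage. In ZAM, part 7 (nt 5062 to 5905 of the consensus) had 21.8 and 23.4 in Gal4-Panx-IDR cells, against 10.1 and 14.1 in Gal4 cells, although the remaining parts other than part 8 lay at 0.226 to 0.274 of Gal4. Relative to the element, part 7 changed by 2.81 ± 0.17 on the log2 scale (SE; limma adjusted p = 4.29e-06), and part 8 by 1.79 (limma adjusted p = 3.03e-05). These parts are thinly covered, with at least 21 reads in each library for part 7. Part 8 of gypsy5 (nt 5823 to 6654) had 14.7 and 11.2 in Gal4-Panx-IDR cells, against 6.60 and 7.57 in Gal4 cells, while the others apart from part 7 lay at 0.325 to 0.365 of Gal4. At least 13 reads stood behind this part in each library, and it reached the minimum level through Gal4-Panx-IDR cells alone, so its place among the largest relative rises depends on that filter. gypsy5 as a whole was among the elements that fell.

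Stalker2 and Doc had well or moderately covered blocks that differed from the rest. Part 6 of Stalker2, a Gypsy element, had 3042 and 2851 in Gal4-Panx-IDR cells, against 2148 and 2709 in Gal4 cells, and parts 5 and 7 had ratios of 0.861 and 0.695. Its remaining parts lay at 0.270 to 0.337, such as part 2, with 479.1 and 534.3 in Gal4-Panx-IDR cells, against 1656 and 2091 in Gal4 cells (relative log2 change -0.97, limma adjusted p = 3.32e-06). The retained block was thus the middle of the element, and all 10 parts were called. Doc was divided in a 5′ and a 3′ portion. Parts 1 to 5 had ratios of 0.951, 0.886, 1.04, 0.878 and 0.931, part 6 had 0.726, and parts 7 to 10 had 0.384, 0.368, 0.353 and 0.340. Part 3 of Doc had 602.3 and 613.6 in Gal4-Panx-IDR cells, against 544.9 and 626.1 in Gal4 cells, and part 10 had 925.1 and 958.3 in Gal4-Panx-IDR cells, against 2364 and 3176 in Gal4 cells. Groups overlapped in part 3 and were far apart in part 10. The level of Doc as a whole thus averaged over 2 regions that differed.

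In baggins, a LINE, the 3′ end lost most of its coverage, and the mean of parts 7 and 8 before it was not lower. Part 10 alone held most of the antisense coverage of baggins, whose level was 513.3 and 688.0 in Gal4 cells. Part 10 had 1007 and 1098 in Gal4-Panx-IDR cells, against 3190 and 4442 in Gal4 cells, a ratio of 0.276, and part 9 had a ratio of 0.287. Part 6 had 11.5 and 11.1 in Gal4-Panx-IDR cells, against 8.24 and 9.30 in Gal4 cells, but reached the minimum level through Gal4-Panx-IDR cells alone, so its relative change of 2.09 is a description. Parts 7 and 8, with less coverage than the 3′ end, had ratios of 1.16 and 1.19. In part 8 the days lay on either side of the Gal4 mean, day 6 at 0.899 and day 7 at 1.49 of it. jockey2, also a LINE, had the relatively lowest parts with separate groups among the elements that fell. Part 6 (nt 1715 to 2057) had 85.4 and 70.4 in Gal4-Panx-IDR cells, against 348.9 and 709.2 in Gal4 cells, a relative change of -1.18 (limma adjusted p = 0.00309). The Gal4 libraries differed widely here, and without Gal4 library 2 the limma adjusted p was 0.0568. Part 5 had 103.0 and 103.5 in Gal4-Panx-IDR cells, against 435.2 and 915.2 in Gal4 cells, a relative change of -1.12 (limma adjusted p = 0.00218).

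The higher antisense coverage of roo was uneven as well. The ratios of parts 1 to 10 were 7.39, 8.84, 14.0, 14.4, 3.69, 3.13, 10.6, 1.16, 6.78 and 18.4. Part 8 (nt 6366 to 7274) had 930.5 and 923.5 in Gal4-Panx-IDR cells, against 737.2 and 863.4 in Gal4 cells, so that it barely took part in the increase, with a relative log2 change of -2.91 ± 0.09 (SE; limma adjusted p = 4.63e-08). Part 10 had 7871 and 9303 in Gal4-Panx-IDR cells, against 458.7 and 476.1 in Gal4 cells. Parts 5 and 6 had relative changes of -1.24 and -1.48. Day 7 was above day 6 in each part other than part 8.

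**Figure D4:**
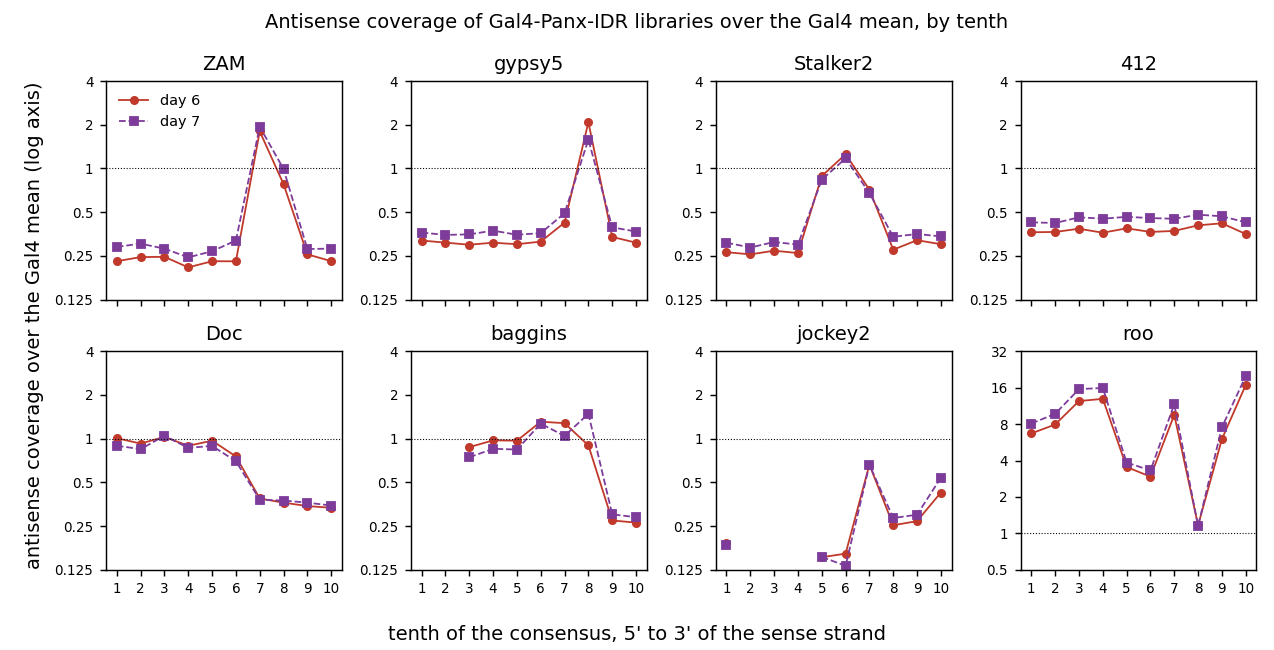
Antisense coverage of the day 6 (circles) and day 7 (squares) Gal4-Panx-IDR libraries over the mean of the Gal4 libraries, on a log axis, in 10 equal parts of 8 elements from the 5′ to the 3′ end of the sense strand. The line at 1 marks no difference and gaps are parts below the minimum level. '412' stays between 0.389 and 0.443 for the mean of both days, ZAM and gypsy5 each have 1 part above 1, Doc changes between parts 5 and 7, and part 8 of roo stays near 1.

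The 7 elements with the largest called sense increases were '412', Quasimodo, Stalker2, Tabor, blood, gypsy and mdg1. In each, the 2 groups were apart, with Gal4-Panx-IDR above Gal4, in all 10 parts. They were chosen by their sense rise in the same libraries, so this is a description, and parts of other elements were not counted. Some parts were thinly covered, such as part 2 of Quasimodo, with 9.12 and 4.32 in Gal4-Panx-IDR cells, against 2.04 and 4.18 in Gal4 cells. The gain itself was unevenly spread. In Tabor parts 5, 6 and 7 held 19.1%, 35.1% and 27.1% of it and part 2 held 0.34%. In Stalker2 parts 7 and 8 held 41.8% and 30.0% and part 4 held 0.27%. The part with the most gain held the smallest share in mdg1, where part 8 (nt 5237 to 5984) had 18.3%. That part had sense levels of 1723 and 2009 in Gal4-Panx-IDR cells, against 4.27 and 6.10 in Gal4 cells. In gypsy part 9 (nt 5977 to 6723) held 37.2% of the gain and part 3 held 0.87%. The shares of a part on day 6 and on day 7 differed by at most 2.83 percentage points in these elements.

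The libraries of day 6 and day 7 share their controls, so their changes are given side by side and were not correlated. Over the 39 elements that fell, the median ratio to the Gal4 mean was 0.320 on day 6 (range 0.213 to 0.738) and 0.364 on day 7 (range 0.250 to 0.714). Antisense coverage on day 7 was above that on day 6 in 31 of these 39 elements, and the median difference over all 39 was 0.16 on the log2 scale. It was below day 6 in 23 of the 28 elements that were not called, and the median difference over all 28 was -0.12. Day 7 was above day 6 in 29 of 41 LTR elements, in 9 of 18 LINEs and in 2 of 14 DNA transposons. For the 37 elements with a mean of at least 100 over the 2 Gal4-Panx-IDR libraries, the median size of the difference between days was 0.178. The largest was that of Helena, 0.38, followed by gtwin, 0.35, gypsy2_new and mdg1, each 0.34, and gypsy, 0.32, in all of which day 7 was higher. gypsy2_new, for example, had 616.7 on day 6 and 780.5 on day 7, against 1766 and 1834 in Gal4 libraries 1 and 2.

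These differences have a scale in the control cells. Gal4 library 2 was above Gal4 library 1 in 69 of the 73 elements and in each of the 39 that fell, with medians of 0.27 and 0.38. The gap between days was smaller than the gap between the Gal4 libraries in 30 of the 39. It was larger in Helena, gtwin, gypsy2_new, mdg1 and gypsy, named above for their large day gaps. In gypsy it was 0.32 between days and 0.034 between Gal4 libraries, and in Helena 0.38 and 0.075. Both days lay below both Gal4 libraries in all 39, which were called in these same libraries, and in 54 of all 73 tested. With 1 library per day, the day itself could not be tested. The gaps also depend on the scaling and were not computed under the other scalings. The median-ratio factors were 0.914 and 0.848 for day 6 and day 7, and 1.08 and 1.24 for Gal4 libraries 1 and 2. Dividing by them would raise day 7 against day 6 and lower Gal4 library 2 against library 1. The factors for total transposon coverage, 0.727 and 0.813 for day 6 and day 7, would lower day 7 instead. On the sense strand day 7 was above day 6 in 23 of 54 elements and below in 31.

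**Figure D5:**
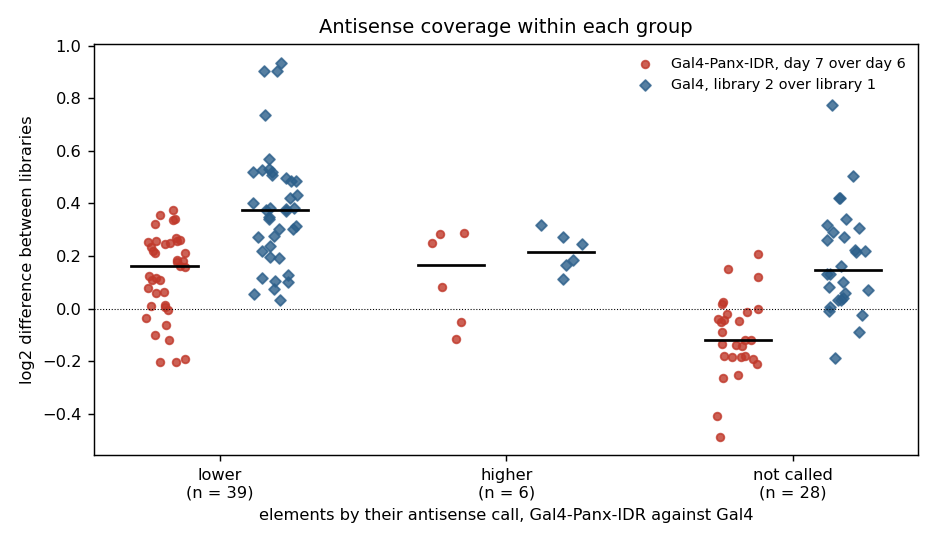
log2 difference of antisense coverage between the 2 libraries of a group, day 7 minus day 6 of Gal4-Panx-IDR beside library 2 minus library 1 of Gal4, for 73 elements split by their antisense call (39 lower, 6 higher, 28 not called). Bars are medians, 0.16 between days and 0.38 between Gal4 libraries among the 39 that fell, and the median between days is -0.12 for elements not called.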

How the data were processed

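Small RNAs bound to Argonaute proteins were purified and sequenced and, per the submitters' processing notes, handled with cutadapt, Bowtie and HOMER. The authors deposited signal as coverage of each position and strand of transposon consensus sequences, from reads of up to 35 nt, scaled to 1000000 miRNA reads, with a read at 2 places of 1 consensus weighted 0.5 at each. Values of the antisense strand are negative in the deposited tables and were used without their sign. Odd half-read steps made up 8.02% to 8.33% of the values of LTR elements and 1.60% to 1.66% of those of LINEs. The smallest step gave the depth, and numbers of reads are lower limits derived from it that cover counting error only.

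The level of an element is its mean coverage per nt. limma 3.58.1 (R 4.3.3) was fitted to log2(level + 1), the spread being allowed to follow the level, over elements that averaged at least 10 in the 4 libraries. Benjamini-Hochberg adjusted p-values below 0.05 were called. The prior degrees of freedom were infinite for the antisense, sense and strand tests and 6.25 for the test of parts. Sums over classes were compared with a two-sided exact permutation test. Coverage is not a count, so no count model was used. Tables and figures were made with Python 3.11.15, pandas 2.3.3, numpy 2.4.6 and matplotlib 3.10.9, and the tests were tested on simulated data.

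Named were gypsy, ZAM and Idefix, in each class or LTR superfamily the 3 elements with the most antisense coverage in Gal4, the 5 strongest called decreases and the 5 strongest called increases of the antisense, sense and strand tests whose groups were apart, the 6 parts of elements with the largest relative rise and the 6 with the largest relative fall, and the 5 largest differences between days. Elements named beyond this, such as the other LINEs that fell, were chosen after their values were seen. The members and lists were chosen with earlier results of these data known. Alternatives were pseudocounts of 0.1 and 10, no filter or a mean of at least 100, the median over positions, a fit without the trend, 2 other scalings, all 10 libraries in 1 fit, 5 or 20 parts or windows of 500 nt, and each library left out in turn.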

Additional observations from a re-analysis of the deposited data

How the results depend on the processing

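No paired analysis was possible because the Gal4-Panx-IDR libraries carry a day and no replicate number. For antisense coverage (39 lower, 6 higher), the median over positions gave 22 lower and 3 higher, a minimum mean of 100 gave 3 higher, scaling to total coverage 28 higher, median-ratio scaling 18 higher, and leaving out each library 34 to 43 lower and 4 to 7 higher. For sense coverage (19 lower, 14 higher) the minimum of 100 gave 9 and 2, the median over positions 5 and 7, total scaling 7 and 28, median-ratio scaling 12 lower, and leaving out a library 15 to 20 and 11 to 13. For the strand ratio (37 lower, 15 higher) the median over positions gave 16 and 5, the minimum of 100 gave 8 higher, and leaving out a library 34 to 37 and 9 to 14, with 9 without day 6. For parts (61 lower, 64 higher), 5 parts gave 27 and 32, 20 parts 94 and 112, no trend 37 lower, and leaving out a library 33 to 65 lower, with 33 without Gal4 library 2, and 42 to 66 higher.

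The class log2 changes under total scaling were -0.078 for all elements, -0.068 for LTR, -0.30 for LINE and 0.92 for DNA. The median ratio over elements gave log2 values of -1.37 for LTR, -0.68 for LINE and -0.0048 for DNA. The DNA value is close to no change, as is the median log2 change of DNA elements, 0.0099. Without roo, all elements gave -1.25 and LTR -1.28. Reversed log2 changes were, on the antisense strand, '1360' (-0.082 to 0.097 with a library left out, negative without day 6 or Gal4 library 1), 3S18 (-0.17 to 0.25, negative without the same libraries), Copia1 (1.46 with the median over positions, 0.40 and 0.13 under total and median-ratio scaling), Tc1 (0.36 and 0.090 under these scalings) and rooA (0.055, 0.37 and 0.093 under the 3). With the median over positions Dm88 and gypsy3_new were at 0, as were BS and gypsy3_new on the sense strand, and the strand ratio of transib2 was -1.07. Of the alternatives for named elements, 632 kept direction and call, 17 lost and 8 gained a call, and 17 turned direction or went to 0. The cause was not tested. Depth, at 87066 to 151205 miRNA reads, limits weakly covered elements and parts.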
